A study of Arabidopsis thaliana with 40 samples.

Results

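The 10 genes described here are the early genes of flavonol synthesis in Arabidopsis thaliana and a pair of MYB transcription factors that control them, chosen by their locus identifiers from the 27416 genes of the count table. They are the enzyme genes CHS (AT5G13930), CHI (AT3G55120), F3H (AT3G51240), F3'H (AT5G07990) and FLS1 (AT5G08640), the CHI-like gene CHIL (AT5G05270), the glycosyltransferase genes UGT78D1 (AT1G30530) and UGT78D2 (AT5G17050), and the regulators MYB12 (AT2G47460) and MYB111 (AT5G49330). The study measured shoot messenger RNA in 40 libraries, 8 in each of 5 groups, made from 200 ng of total RNA each. Plants were kept at 22 °C under days of 16 h light and 8 h dark in soil pots, and the labels name no mutant, transgene or accession. The start group was taken before pretreatment from plants 14 days old. The water group and the ethanol group followed 6 days with water or with 20 mM ethanol at the base of the pots. The frozen water and frozen ethanol groups had the same pretreatments and then -4.0 °C overnight in a rotating incubator. Their labels add 2 h, and the labels do not say from which point that time was counted. All groups but the first were thus 6 or more days older than the start group, so plant age, time in the water or ethanol bath and developmental stage cannot be told apart in comparisons with the start. Any difference in the hour of sampling is part of those comparisons too. Separate plants or pots are not stated for the replicates. The p-values thus weigh group differences against the spread of these libraries only, which may not be the spread of independent plants.

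Flavonols are phenolic pigments that absorb ultraviolet light and accumulate in leaf epidermis, where they are known as a sunscreen. Chalcone synthase (CHS) joins p-coumaroyl-CoA from the phenylpropanoid pathway with malonyl-CoA, chalcone isomerase (CHI) closes the ring, flavanone 3-hydroxylase (F3H) and flavonoid 3'-hydroxylase (F3'H) add hydroxyl groups, and flavonol synthase (FLS1) makes the flavonol, which sugar-transferring enzymes then stabilise. In Arabidopsis, MYB11, MYB12 and MYB111 activate these genes, and light acts on the pathway through the bZIP factor HY5, which binds promoter elements with an ACGT core such as the G-box.

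To show which of the genes carry such an element, the 250 bases before each annotated gene start were searched for the G-box CACGTG, for the ACGT core that lies inside it, and for 3 AC elements, AC-I (ACCTACC), AC-II (ACCAACC) and AC-III (ACCTAAC), on both strands. The G-box occurred in 4 of the 10 windows, compared with 6.641% of the windows of 26712 genes. Those 4 windows are printed below from the RefSeq TAIR10.1 genome, 5′ to 3′ on the plus strand, which is the coding strand of each gene, with the G-box in capitals. In CHIL the first run of capitals is AC-III, read on the other strand.
MYB12, chr2:19476076-19476325: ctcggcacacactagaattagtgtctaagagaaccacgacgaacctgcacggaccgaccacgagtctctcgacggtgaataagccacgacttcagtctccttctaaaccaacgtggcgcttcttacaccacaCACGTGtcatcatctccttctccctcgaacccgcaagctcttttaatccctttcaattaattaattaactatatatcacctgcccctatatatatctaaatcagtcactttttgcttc
CHS, chr5:4488226-4488475: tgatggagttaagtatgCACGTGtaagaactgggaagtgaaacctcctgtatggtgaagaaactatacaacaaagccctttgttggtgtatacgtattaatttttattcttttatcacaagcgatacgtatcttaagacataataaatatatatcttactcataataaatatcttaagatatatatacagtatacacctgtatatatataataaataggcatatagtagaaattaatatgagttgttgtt
CHIL, chr5:1563036-1563285: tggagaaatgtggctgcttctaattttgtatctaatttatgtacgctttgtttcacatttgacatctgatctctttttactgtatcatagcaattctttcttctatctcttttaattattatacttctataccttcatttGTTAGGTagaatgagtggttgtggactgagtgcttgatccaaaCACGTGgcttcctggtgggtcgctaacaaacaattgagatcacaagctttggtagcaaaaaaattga
F3H, chr3:19024942-19025191: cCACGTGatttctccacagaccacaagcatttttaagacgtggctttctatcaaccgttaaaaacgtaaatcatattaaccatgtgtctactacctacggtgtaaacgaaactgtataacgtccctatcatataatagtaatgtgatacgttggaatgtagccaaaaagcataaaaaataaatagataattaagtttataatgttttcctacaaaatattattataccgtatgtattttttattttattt

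The G-box began 67 bases before the gene start in CHIL, 118 in MYB12 and 249 in F3H, and in CHS it lay between the last 2 of these distances. The ACGT core occurred in 5 of the 10 windows, those 4 and MYB111, against 44.325% of all windows. An AC element, a kind of site bound by MYB factors, occurred in 1 of the 10 windows, that of CHIL, against 6.155% of all windows. These matches describe the letters of the windows only.

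Library totals ran from 2098593 to 9211896 counts, and 16579 genes passed the filter on low counts. Of the 10 genes, 9 were tested, and MYB12 failed the filter. Levels are CPM, that is, counts scaled to a common library total with TMM factors, and changes are log2 fold changes with SE from edgeR's quasi-likelihood test, adjusted by Benjamini-Hochberg over all genes tested and called at an adjusted p under 0.05. The labelled tissue was checked against markers. The 5 leaf mesophyll markers, among them RBCS1A, summed to group medians of 49849 to 64982 CPM. The 5 epidermis markers summed to medians of 2866 to 3438 CPM. Of the root markers, TIP2;3 and CASP1 averaged under 1 CPM in every group, NRT2.1 averaged 0.272 to 2.53 CPM, and PYK10 averaged 94.3 CPM at the start and 30.7 to 36.7 CPM in the other groups.

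The 6 days on water were accompanied by a fall of 8 of the 9 tested genes, covering every enzyme and glycosyltransferase gene, by 1.81-fold to 5.45-fold. CHS, the entry enzyme of the pathway, ranged from 430 to 584 CPM at the start with a median of 490 and from 67.2 to 137 CPM on water with a median of 108. Every start library stood above every water library, and the fall was 4.71-fold (log2 fold change -2.23 ± 0.12, SE, n = 8 per group; edgeR adjusted p = 1.15e-22). All genes tested gave calls of lower level in 12.5% of cases in this comparison, and their median log2 fold change was -0.01, against -1.97 for the 9 tested genes.

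The steps after CHS fell by unlike amounts. CHI, which closes the flavanone ring, ranged from 44.1 to 68.7 CPM (median 55.0) at the start and from 14.1 to 22.2 CPM (median 18.1) on water, a fall of 3.07-fold (log2 -1.62 ± 0.12). CHIL, which aids CHS and has no isomerase activity of its own, ranged from 60.9 to 78.5 CPM (median 68.2) and from 12.5 to 26.7 CPM (median 16.4), a log2 change of -1.97 ± 0.16. F3H, which makes dihydroflavonols, ranged from 45.3 to 72.1 CPM (median 51.6) and from 6.47 to 12.7 CPM (median 10.6), the largest change of the 9 genes at -2.45 ± 0.16. None of these 3 genes had a water library within the range of the start. F3'H, which sets the balance of quercetin to kaempferol, was a low gene, with 3.27 to 12.4 CPM (median 8.33) at the start and 1.04 to 2.63 CPM (median 1.88) on water, or 5 to 18 counts per water library, and fell by 4.01-fold with an SE of 0.31 on the log2 scale. FLS1, the main flavonol synthase, ranged from 49.4 to 69.8 CPM (median 58.2) and from 14.1 to 27.7 CPM (median 22.9), a fall of 2.62-fold (log2 -1.39 ± 0.13). The start and water libraries did not overlap for either gene.

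The glycosyltransferase genes parted. UGT78D1, which adds rhamnose to the 3-position of flavonols, ranged from 53.1 to 106 CPM (median 69.0) at the start and from 31.1 to 50.7 CPM (median 43.3) on water, a fall of 1.81-fold (log2 -0.85 ± 0.13). UGT78D2, which adds glucose to the 3-position of flavonols and anthocyanidins, ranged from 39.5 to 53.5 CPM (median 49.5) and from 5.44 to 13.6 CPM (median 10.7), a fall of 4.43-fold (log2 -2.15 ± 0.14). Neither gene had a water library within the range of the start. The groups did not overlap for 8 of the 10 genes, all lower on water, against 4.54% of the 16579 genes tested.

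Neither regulator showed a called change. MYB111 ranged from 1.65 to 5.06 CPM (median 2.80) at the start and from 0.686 to 3.03 CPM (median 1.91) on water, and its log2 fold change was -0.51 ± 0.32 (edgeR adjusted p = 0.277, 95% interval -1.15 to 0.12). MYB12 ranged from 0 to 2.45 CPM at the start (median 1.05) and from 0 to 2.21 CPM on water (median 0.532). The ranges of both genes overlapped. A floor of 3 counts lay between 0.312 and 1.52 CPM over the 40 libraries, and most MYB12 values were near it. In a fit without the filter the MYB12 change was -0.39 ± 0.70 (edgeR adjusted p = 0.812). MYB11, the remaining factor of the trio, averaged at most 0.395 CPM in any group and was not tested.

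Ethanol against the start called 8 of the 9 tested genes lower, all but MYB111, where 16.6% of all genes tested were called lower. Both pretreatments are compared with the same start libraries. The log2 changes were -2.11 ± 0.12 for CHS, -1.45 ± 0.12 for CHI, -1.70 ± 0.16 for CHIL, -2.07 ± 0.16 for F3H, -1.30 ± 0.30 for F3'H, -1.17 ± 0.13 for FLS1, -0.76 ± 0.13 for UGT78D1 and -1.79 ± 0.14 for UGT78D2. MYB111 stood at -0.16 ± 0.32 (edgeR adjusted p = 0.756). For 6 of the genes no ethanol library reached the start libraries, against 6.65% of genes tested, while F3'H and UGT78D1 overlapped. Around the pathway, 5 of 8 general phenylpropanoid genes fell against the start (median -0.81), with PAL1 at -1.74 ± 0.11 and C4H at -1.04 ± 0.09. Of 9 hydroxycinnamate genes 7 fell and 1 rose (median -0.42), with CCR1 at -0.99 ± 0.08 and OMT1 at -0.65 ± 0.07. Of 4 tested other flavonol genes 2 fell (median -0.78), RHM1 at -1.21 ± 0.09 and UGT89C1 at -1.01 ± 0.13, and of 6 late anthocyanin genes 5 fell (median -1.12), with LDOX at -1.80 ± 0.22 and DFR at -2.01 ± 0.27. Of the light and UV-B genes 6 fell and 3 rose (median -0.21), with BBX25 at -2.09 ± 0.10, HYH at -2.93 ± 0.16 and HY5 at -1.32 ± 0.23. Of the repressors 4 fell and 1 rose (median -0.35), with LBD39 at -1.36 ± 0.25 and MYBL2 at 0.52 ± 0.08, and of the anthocyanin regulators 1 rose, TTG1, at 0.35 ± 0.12. Over the same interval 4 of 5 epidermis markers fell, their summed level being 2688 to 3165 CPM on ethanol (median 2931) against 3237 to 3751 CPM at the start, 3 of 5 mesophyll markers fell and 1 rose, and PYK10 fell (-1.36 ± 0.25). Their part in these changes was not tested.

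**Figure D1:**
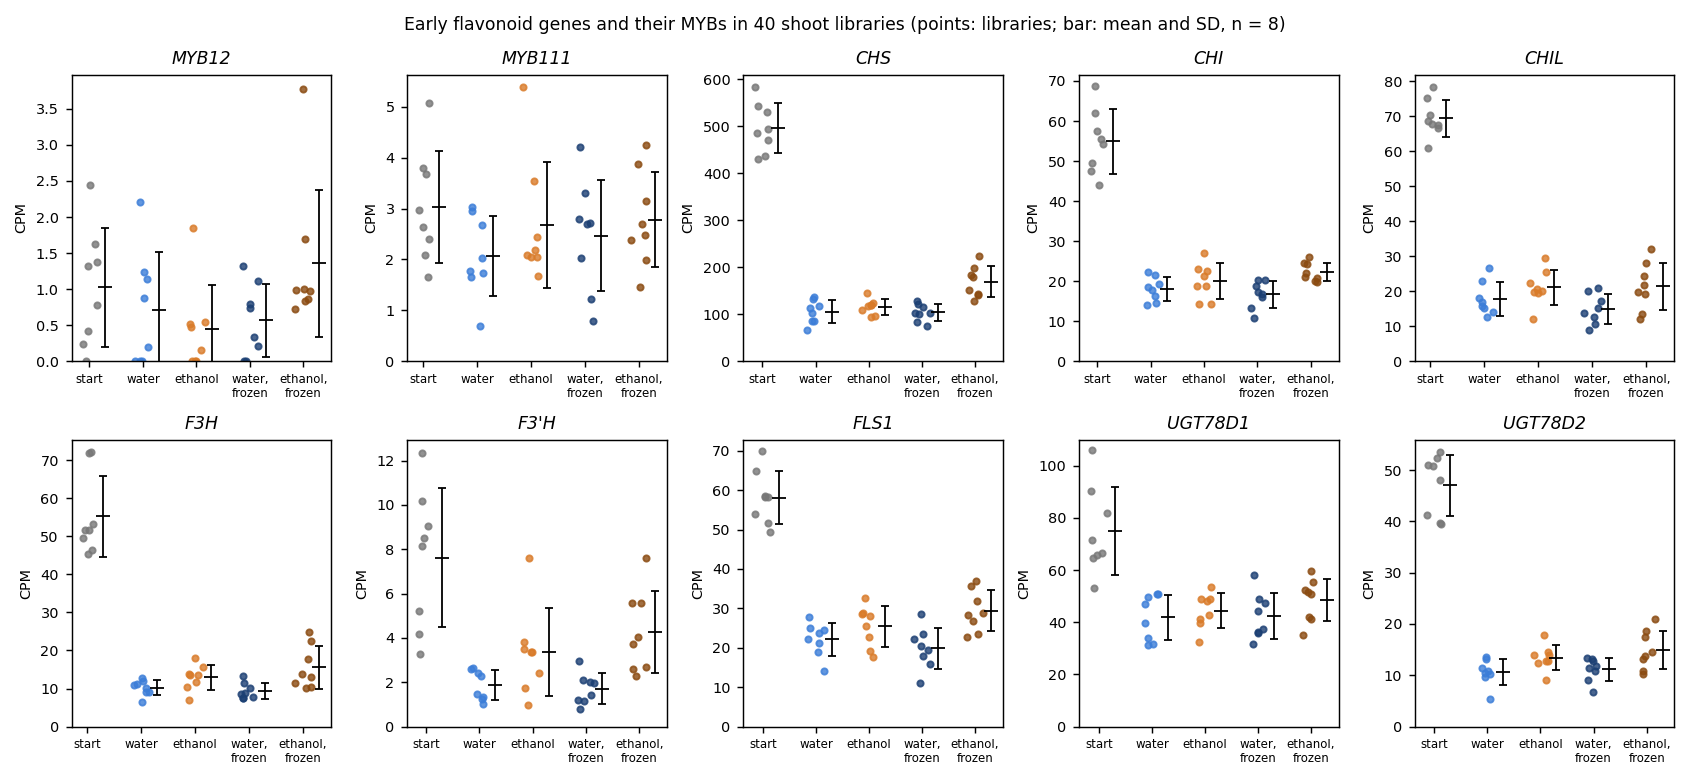
Level of each gene in CPM (vertical axes, each from 0) in the 5 groups (horizontal axes); points are libraries, and the bar beside them is the mean and SD over 8 libraries. For CHS the start libraries sit between 430 and 584 CPM and all others at or under 223.1 CPM, while the points of MYB12 and MYB111 overlap across groups.

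The genes around the pathway were counted in lists. Of 8 general phenylpropanoid genes, which supply p-coumaroyl-CoA, 5 fell on water and none rose (median -0.67). PAL1, the entry enzyme, fell from 67.3 ± 4.13 to 21.5 ± 4.64 CPM (mean ± SD; log2 -1.64 ± 0.11, edgeR adjusted p = 5.80e-18), and PAL2 changed by -0.93 ± 0.09. Of 9 genes of the hydroxycinnamate branch, which draws on the same precursor, 6 fell and 1 rose (median -0.37), with CCR1 of lignin synthesis at -0.70 ± 0.08 and SNG1 of sinapoylmalate synthesis at 0.51 ± 0.07. The summed level of this branch had a median of 1085 CPM at the start and 1003 CPM on water. Among 8 other flavonol genes 4 were tested and 2 fell, the UDP-rhamnose synthase gene RHM1 by -1.09 ± 0.09 and UGT89C1, which adds rhamnose at the 7-position, by -1.06 ± 0.13. Of 6 late anthocyanin genes 5 fell (median -2.19). LDOX, anthocyanidin synthase, changed by -2.51 ± 0.23, and DFR, which opens the anthocyanin branch, fell from 55.6 ± 20.1 to 8.90 ± 3.00 CPM (-2.65 ± 0.28).

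Regulators upstream of the MYB genes moved both ways. The list of light and UV-B genes held 13, among them MYB11, itself one of the flavonol MYB genes, which was not tested. The other 12 were tested, and 6 fell and 3 rose (median -0.60). BBX25 fell from 123 ± 7.46 to 25.3 ± 3.72 CPM (log2 -2.29 ± 0.10), HYH, a close relative of HY5, from 63.0 ± 7.24 to 9.67 ± 2.92 CPM (-2.71 ± 0.15), and HY5 from 14.1 ± 5.19 to 4.04 ± 1.49 CPM (-1.80 ± 0.24; edgeR adjusted p = 1.39e-08). Of 8 repressor genes 2 fell and 1 rose (median -0.31), with MYB4 at -0.95 ± 0.14 and CPC at -0.998 ± 0.33. Of 8 anthocyanin regulators 4 were tested, and PAP2 alone was called, at -1.93 ± 0.59. None of 5 seed coat proanthocyanidin genes passed the filter.

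Markers of other tissues changed over the same interval. Of the 5 epidermis markers 4 fell, and their summed level went from 3237 to 3751 CPM at the start (median 3438) to 2302 to 3297 CPM on water (median 3014). The root marker PYK10 went from 64.2 to 125 CPM (median 94.7) to 19.1 to 45.4 CPM (median 30.7). Of the 5 mesophyll markers 2 fell and 1 rose. The part of these in the fall of the flavonoid genes was not tested, and in whole shoots fewer cells of a type and less RNA per cell cannot be told apart.

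Because the genes fell by unlike amounts, ratios of counts within each library were also compared, a choice made after seeing the data. The p-values of these ratios therefore describe these libraries and are no independent support for the unlike falls. Counts were not divided by transcript length, so a ratio is read only for its change between groups. The geometric mean ratio of UGT78D1 to UGT78D2 counts was 1.57 at the start, 3.98 on water, 3.32 on ethanol, 3.83 in frozen water and 3.30 in frozen ethanol plants. The log2 ratio was 1.34 higher on water than at the start (two-sided exact permutation test, p = 0.0001554, the smallest that 8 against 8 libraries can give; 0.000466 adjusted over 12 ratio tests), and every start library was below every water library. FLS1 to F3H was 1.03 higher on water (exact permutation p = 0.0001554, adjusted 0.000466), and CHS to FLS1 was lower, with a difference of -0.86 (exact permutation p = 0.000311, adjusted 0.000746). In these libraries F3H and CHS fell further than FLS1, and UGT78D2 fell further than UGT78D1. Ethanol against water gave no called difference in any of the 3 ratios, before or after freezing (exact permutation adjusted p from 0.319 to 0.703).

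**Figure D2:**
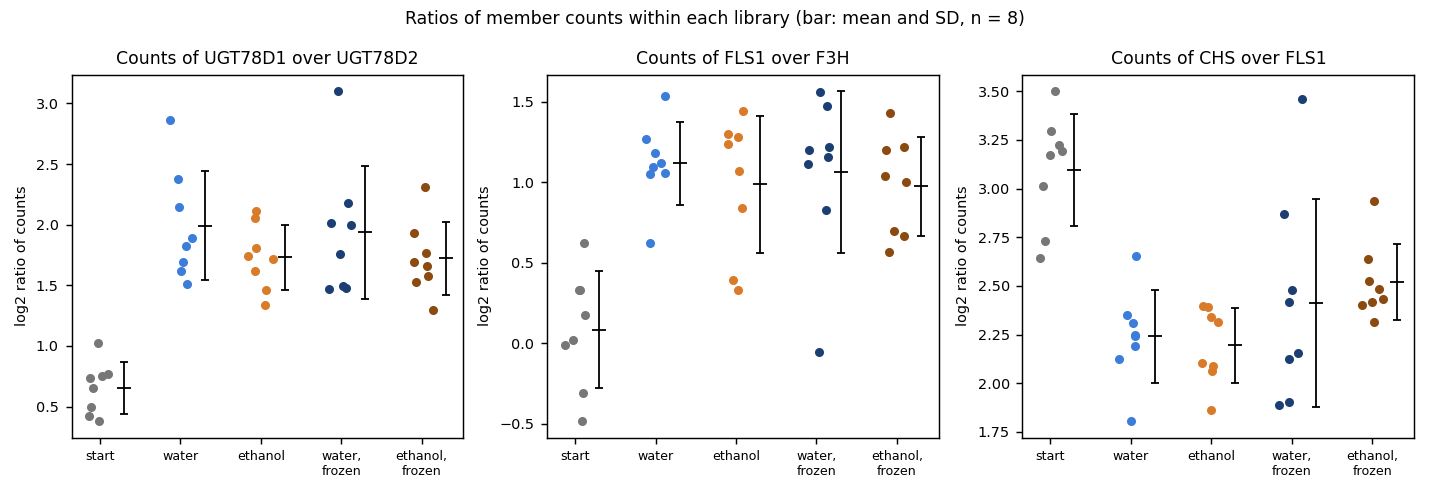
Log2 ratio of the counts of 2 genes within each library (vertical axes) in the 5 groups (horizontal axes); points are libraries and bars the mean and SD over 8. The UGT78D1 to UGT78D2 ratio of the start libraries, with a mean of 0.65, lies below that of all water libraries, with a mean of 1.99.

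Before freezing, ethanol against water gave 0 calls by edgeR among the 9 tested genes, and 0 by DESeq2, where 10.0% of all genes were called in either direction. At an unadjusted p under 0.05 there were 3, F3H, F3'H and UGT78D2. Here and below, counts at an unadjusted p are given without the share of all genes at that threshold. They are descriptions and are not read as a response of these genes. All 9 log2 fold changes were above 0, from 0.09 to 0.71 with a median of 0.27, against a median of 0.01 for all genes tested. CHS ranged from 93.3 to 145 CPM on ethanol (median 118), within reach of the water libraries, and its log2 fold change was 0.13 ± 0.11 (95% interval -0.10 to 0.35; edgeR adjusted p = 0.581). F3H ranged from 7.10 to 18.0 CPM on ethanol (median 13.5; 0.38 ± 0.17, adjusted p = 0.181), F3'H from 0.953 to 7.60 CPM (median 3.36; 0.71 ± 0.33, adjusted p = 0.191) and UGT78D2 from 9.12 to 17.9 CPM (median 13.4; 0.35 ± 0.15, adjusted p = 0.139). The ethanol and water ranges overlapped for all 10 genes, where 1.75% of the genes tested did not overlap. Of the late anthocyanin genes 3 of 6 rose (median 0.73), with UGT75C1 at 0.81 ± 0.24 and UGT79B1 at 1.59 ± 0.52, while DFR was at 0.64 ± 0.30 (edgeR adjusted p = 0.186). Of the hydroxycinnamate branch 4 of 9 fell (median -0.19), with SNG1 at -0.30 ± 0.07 and OMT1 at -0.28 ± 0.07. Of the repressors 2 rose and 2 fell, with LBD39 at -1.06 ± 0.26 and MYBL2 at 0.30 ± 0.08. No general phenylpropanoid, other flavonol, light or anthocyanin regulator gene was called by edgeR, and at an unadjusted p under 0.05 these lists held 1, 0, 1 and 2 genes.

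After freezing, ethanol against water gave 6 calls, all higher: CHS, CHI, CHIL, F3H, F3'H and FLS1. Of all genes tested 2.41% were called higher. The median log2 fold change of the 9 tested genes was 0.54, against -0.01 for all genes. CHS ranged from 75.8 to 127.7 CPM in frozen water plants (median 103) and from 128.0 to 223.1 CPM in frozen ethanol plants (median 166). The lowest frozen ethanol library stood just above the highest frozen water library, so the groups did not overlap, which held for 0.277% of genes tested in that direction and for no other of the 10 genes. The rise was 1.64-fold (log2 0.71 ± 0.11, n = 8 per group; edgeR adjusted p = 2.68e-05).

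The other called genes overlapped. F3H ranged from 7.38 to 13.2 CPM (median 8.77) after water and from 10.2 to 25.0 CPM (median 13.4) after ethanol, a rise of 1.69-fold (log2 0.76 ± 0.17, edgeR adjusted p = 0.00342), with 4 frozen ethanol libraries above all frozen water libraries. F3'H ranged from 0.796 to 2.97 CPM (median 1.70) and from 2.26 to 7.62 CPM (median 3.90), a rise of 2.48-fold (1.31 ± 0.32, adjusted p = 0.00806) that rests on 2 to 13 counts per frozen water library. FLS1 ranged from 11.1 to 28.7 CPM (median 19.9) and from 22.8 to 37.0 CPM (median 28.5), a rise of 1.46-fold (0.55 ± 0.13, adjusted p = 0.00675). In each of these 3 genes all 8 frozen ethanol libraries were above the frozen water median.

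CHI and CHIL were nearer the threshold. CHI ranged from 10.9 to 20.3 CPM (median 17.1) and from 19.8 to 26.0 CPM (median 21.6), with a log2 fold change of 0.42 ± 0.12 (edgeR adjusted p = 0.0300), and CHIL from 8.79 to 20.8 CPM (median 14.4) and from 12.2 to 32.1 CPM (median 20.8), with 0.54 ± 0.16 (adjusted p = 0.0416). The CHI call was lost without any of 5 single libraries (frozen water 3 or 6, frozen ethanol 1, 3 or 6) and the CHIL call without any of 10. CHIL was also not called with each library's transcript length trend removed (adjusted p = 0.0588) or with only these groups in the fit (adjusted p = 0.0884).

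The glycosyltransferase and MYB genes were not called. UGT78D1 ranged from 31.5 to 58.1 CPM (median 40.9) and from 35.0 to 59.5 CPM (median 51.1), with 0.21 ± 0.13 (95% interval -0.04 to 0.46; edgeR adjusted p = 0.422). UGT78D2 ranged from 6.76 to 13.4 CPM (median 11.5) and from 10.2 to 21.0 CPM (median 14.1), with 0.40 ± 0.14 (adjusted p = 0.0942), and was called when frozen ethanol replicate 4 or 8 was left out (lowest adjusted p = 0.0403). MYB111 ranged from 0.800 to 4.21 CPM (median 2.70) and from 1.45 to 4.24 CPM (median 2.58), with 0.19 ± 0.31 (95% interval -0.43 to 0.80; adjusted p = 0.848). MYB12 ranged from 0 to 1.32 CPM (median 0.540), or 0 to 8 counts, and from 0.718 to 3.78 CPM (median 0.982), or 4 to 26 counts. Without the filter its change was 1.23 ± 0.69 (edgeR adjusted p = 0.376). The ranges of all 4 genes overlapped.

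**Figure D3:**
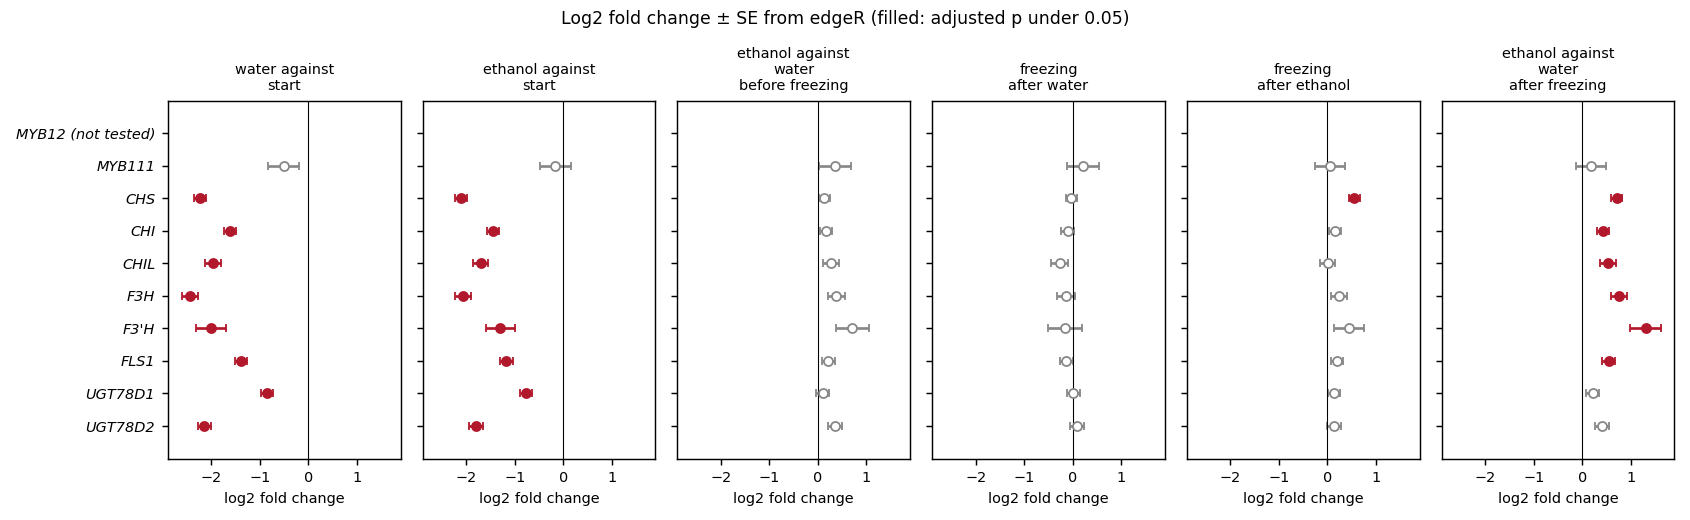
Log2 fold change with SE (horizontal axes) of the 9 tested genes (vertical axis) in 6 comparisons, from edgeR with 8 libraries per group; filled points have an adjusted p under 0.05. Both comparisons with the start show 8 filled points below 0, and ethanol against water after freezing shows 6 filled points above 0, from 0.42 for CHI to 1.31 for F3'H.

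In the same comparison 5 of 6 late anthocyanin genes rose (median 1.34), DFR from 6.76 ± 3.08 to 19.0 ± 12.1 CPM (log2 1.52 ± 0.29, edgeR adjusted p = 0.000536). UGT75C1 rose by 1.27 ± 0.23 and GSTF12, needed for anthocyanin transport, by 1.41 ± 0.27. Of the tested anthocyanin regulators, PAP1 rose from 4.74 ± 2.30 to 10.0 ± 4.68 CPM (1.09 ± 0.30). No gene before CHS was called higher. Of 8 phenylpropanoid genes 1 fell, PAL2, at -0.28 ± 0.08, and PAL1 was at -0.16 ± 0.11 (adjusted p = 0.508). Of the hydroxycinnamate branch 3 of 9 fell (median -0.12), HCT by -0.43 ± 0.08 and SNG1 by -0.27 ± 0.07. No light or UV-B gene was called by edgeR, with 0 at an unadjusted p under 0.05, and HY5 was at 0.05 ± 0.24 (adjusted p = 0.958). Among the repressors 3 of 8 fell, LBD38 from 15.2 ± 1.99 to 6.57 ± 2.34 CPM (-1.22 ± 0.21) and LBD37 by -0.74 ± 0.13, which are known as nitrogen-responsive repressors of anthocyanin genes. No other flavonol gene was called by edgeR, with 1 at an unadjusted p under 0.05. A single epidermis marker fell, PDF1, the summed markers having medians of 2998 CPM after water and 2866 CPM after ethanol, and no mesophyll or root marker was called.

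**Figure D4:**
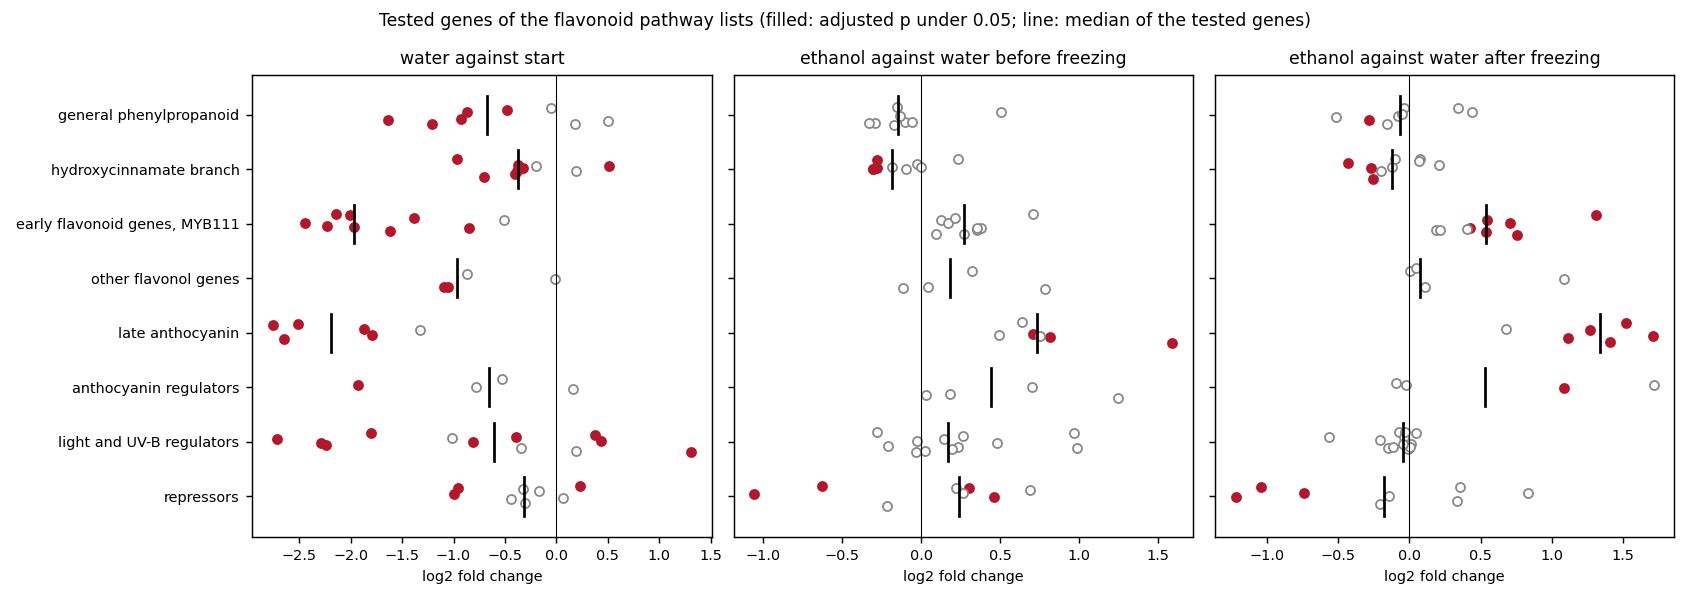
Log2 fold change (horizontal axes) of each tested gene, by pathway list (vertical axis), in 3 comparisons; filled points have an edgeR adjusted p under 0.05, and the line is the median of the tested genes. On water the medians of the early flavonoid and late anthocyanin lists are -1.97 and -2.19, and after freezing ethanol against water gives 0.54 and 1.34.

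Comparisons of frozen with unfrozen plants gave 1 call among these genes. In them the low temperature, the night in the rotating incubator and the labelled 2 h cannot be told apart. Any difference in time of day, in light at sampling or in age by that night is part of these comparisons too. After water, frozen against unfrozen plants gave 0 calls by edgeR and 0 by DESeq2 among the 9 genes, and none had an unadjusted p under 0.05, where 14.0% of all genes were called. That share of all genes was far lower with each library's transcript length trend removed, as counted in the last section. The 0 calls are therefore not read as a result particular to these genes. The log2 fold changes ran from -0.27 to 0.22 with a median of -0.11, and CHS was at -0.03 ± 0.12 (95% interval -0.26 to 0.19). After ethanol, CHS alone was called among the 9 genes, where 4.10% of all genes were called higher. CHS went from 93.3 to 145 CPM (median 118) before freezing to 128 to 223.1 CPM (median 166) after it, a rise of 1.46-fold (log2 0.55 ± 0.11, edgeR adjusted p = 0.000556). These ranges overlapped, and 5 of the 8 frozen libraries were above all unfrozen ones. The remaining 8 tested genes lay between 0.00 for CHIL and 0.45 ± 0.30 for F3'H (adjusted p = 0.410). Without the filter MYB12 was at 1.46 ± 0.70 on freezing after ethanol (edgeR adjusted p = 0.231). That value rests on 0 to 13 counts per ethanol library and 4 to 26 per frozen ethanol library. On freezing after water MYB12 was at -0.35 ± 0.72 (edgeR adjusted p = 0.882).

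The relation of reads to transcript length differed between frozen and unfrozen plants, and its values stand beside these results. Each gene's log2 CPM was taken as a deviation from its mean over the 40 libraries, so slopes are relative to the average library. That deviation's slope on log2 length was 0.081 to 0.237 in the 16 frozen libraries and -0.175 to -0.021 in the 24 unfrozen ones. With that trend removed the rise of CHS on freezing after ethanol was 0.57 ± 0.11 (edgeR adjusted p = 0.000927), and the genes called over the table fell from 1621 to 690. Of the phenylpropanoid genes 2 rose after each pretreatment, PAL1 and PAL2 (0.39 ± 0.09) after water and PAL1 and 4CL1 (0.36 ± 0.10) after ethanol. None of these was called with the trend removed, PAL2 being at 0.11 ± 0.09 and 4CL1 at 0.25 ± 0.10. PAL1 was at 0.44 ± 0.11 after water and 0.38 ± 0.11 after ethanol, and with the trend removed at 0.15 ± 0.12 and 0.15 ± 0.11. RHM1 rose by 0.47 ± 0.09 and 0.64 ± 0.09, and with the trend removed only the call after ethanol held (0.46 ± 0.09, edgeR adjusted p = 0.000313). Of the hydroxycinnamate genes CCoAOMT1 changed by -0.43 ± 0.07 and -0.26 ± 0.07, of which only the call after water held with the trend removed (-0.37 ± 0.07). Of the repressors MYBL2, LBD37 and LBD39 fell after both pretreatments and LBD38 after ethanol. MYBL2 was at -0.35 ± 0.08 after water and -0.86 ± 0.08 after ethanol, and LBD37 at -0.40 ± 0.13 and -0.92 ± 0.13. With the trend removed LBD37 was called in both (-0.62 ± 0.13, edgeR adjusted p = 0.00399, and -1.11 ± 0.14), MYBL2 after ethanol (-0.76 ± 0.08) and not after water (-0.24 ± 0.08), LBD38 after ethanol (-0.93 ± 0.21) and LBD39 in neither (-0.78 ± 0.25 and -0.77 ± 0.28). Of the light genes CRY1 rose after both (0.26 ± 0.08 in each), and BBX22 fell after ethanol (-0.32 ± 0.10). With the trend removed neither was called, CRY1 being at -0.04 ± 0.08 and 0.01 ± 0.08, while BBX22 was at -0.29 ± 0.10 (edgeR adjusted p = 0.0977). No late anthocyanin gene was called by edgeR in either, with 0 and 1 at an unadjusted p under 0.05, and DFR was at -0.42 ± 0.32 and 0.47 ± 0.27.

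Whether freezing acted differently after the 2 pretreatments was tested directly. The difference of freezing effects gave 0 calls among the 9 genes by edgeR and by DESeq2, where 0.133% of all genes were called. CHS had the only unadjusted p under 0.05, with a difference of 0.58 ± 0.16 (edgeR adjusted p = 0.170, 95% interval 0.27 to 0.90). Without water replicate 6, the library with the lowest CHS level at 67.2 CPM, CHS was called (adjusted p = 0.0202), and so it was without both that library and ethanol replicate 7 (0.64 ± 0.15, adjusted p = 0.0426). Both fits leave out water replicate 6, so the second adds no separate support. Over the other alternatives that left out no library of these 4 groups its adjusted p ran from 0.0565 with DESeq2 to 0.282 with only these groups in the fit. The other tested genes ran from -0.17 ± 0.45 for MYB111 to 0.60 ± 0.46 for F3'H. Without the filter MYB12 was at 1.81 ± 1.01 (edgeR adjusted p = 0.652). None of the 51 tested genes of the other pathway lists was called by edgeR, with 5 at an unadjusted p under 0.05. The freezing effect on these genes was therefore not shown to differ between water and ethanol plants.

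In order of mean level, the 5 enzyme genes and CHIL ran alike over the groups: start, frozen ethanol, ethanol, water, frozen water. For CHS the means were 497 ± 53.1, 169 ± 33.0, 115 ± 16.4, 105 ± 24.6 and 104 ± 18.1 CPM (mean ± SD, n = 8), and for FLS1 58.1 ± 6.76, 29.4 ± 5.21, 25.4 ± 5.14, 22.1 ± 4.20 and 19.9 ± 5.25 CPM. Of the neighbours in that order below the start, only frozen ethanol and ethanol differed, for CHS alone. UGT78D1, UGT78D2 and MYB111 had the same first 3 places, with frozen water above water by less than their spread. MYB12 had frozen ethanol first at 1.36 ± 1.02 CPM and the start second at 1.03 ± 0.82 CPM, with wide overlap. Together the 10 genes took 0.0829 ± 0.0084% of all counts at the start, 0.0220 ± 0.0036% on water, 0.0254 ± 0.0038% on ethanol, 0.0233 ± 0.0029% in frozen water and 0.0349 ± 0.0062% in frozen ethanol plants.

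Within groups the genes were only loosely tied. With group means removed, Pearson's r over 40 libraries among the 28 pairs of the 8 enzyme, CHIL and glycosyltransferase genes ran from -0.15 to 0.64 with a median of 0.26, and r of MYB111 with each of the 8 ran from -0.11 to 0.13. These libraries share their depth between genes, and counting error in low genes such as F3'H and MYB111 limits any r. CHS was set against F3H, FLS1, MYB12 and MYB111 within each group of 8, 20 relations in all, and no Pearson's r passed an exact permutation test after adjustment over them (lowest adjusted p = 0.110). By Spearman's rho 1 did, CHS with F3H in frozen water plants, at rho = 0.93 (exact permutation p = 0.00223, adjusted 0.0446), where Pearson's r was 0.85 (exact permutation p = 0.00848, adjusted 0.110) and 0.78 without the 2 libraries farthest from the CHS median.

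All tested genes other than the 10 described here were ranked by Pearson's r with the mean standardised log2 CPM of those 8 genes. This r was taken over the 40 libraries. ELIP1, an early light-induced protein of the chloroplast, came first at r = 0.97, followed by AT5G62210 and the ammonium transporter AMT1;2 at 0.95 and by AT5G55620 and the starch synthase GBSS1 at 0.94, and LDOX was among the first 10 at 0.93. These r are over libraries that include the start group, against which ELIP1 changed by -4.02 ± 0.17 and GBSS1 by -3.19 ± 0.14 on water. With group means removed, IPMI2 came first at 0.82, followed by CYP83A1 and TBL26 at 0.77, and LDOX was also among the first 10 at 0.76. LDOX alone stood among the first 10 by both measures.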

How the data were processed

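The authors deposited unnormalized read counts per gene. The submitters' processing notes name bcl2fastq, Trimmomatic, HISAT2, featureCounts, DESeq2 and the build TAIR10. Versions, strand and multi-mapping settings: not given in the sources used here. Levels of UGT78D1, UGT78D2 and other genes with close copies are therefore uncertain. A second deposited table holds a normalized signal, found to be the counts divided by size factors and used only for that check. Samples were grouped by title. A root marker of the lists is not reported here. The test was edgeR 4.0.16 (R 4.3.3): filterByExpr, TMM, 1 model of 40 libraries, quasi-likelihood F test, Benjamini-Hochberg over 16579 genes. Each SE is |log2 fold change| over the square root of F, and 95% intervals use the normal quantile. The procedure was tested on simulated data. MYB12 correlations used log2 (CPM + 0.5).

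Members, lists and rules were chosen with earlier results of these data known. Named were all 10 members, the called genes with the 2 smallest p per list, and HY5, MYB11, DFR and PAL1; genes of like pattern were the first 10 by r. The other called repressors on freezing were named after their values were seen. Replicate pairs differed beyond counting error (chi-square over its degrees of freedom 3.48 to 21.0). Depths of 2098593 to 9211896 counts put a floor of 3 counts at 0.312 to 1.52 CPM after TMM scaling, for counting error only. Gene starts and sequences came from RefSeq TAIR10.1. Alternatives were median-ratio size factors, no filter, DESeq2 1.42.0, only the groups compared, a replicate block, the transcript length trend removed (spline with 4 degrees of freedom), both together, and leaving out libraries. Ratios, also with 1 added to each count, were added after seeing the data.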

Additional observations from a re-analysis of the deposited data

Results flagged for a closer look

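Of 50 groups of 8 libraries, 3 had a library far from the other 7. Chance alone gives about 1 in 20 for normally distributed values, and that rate need not hold for CPM from low counts. MYB12 stood at 1.85 CPM in ethanol replicate 6, from 13 counts, against at most 0.546 CPM in the other ethanol libraries. MYB12 stood at 3.78 CPM in frozen ethanol replicate 7, from 26 counts, against at most 1.70 CPM in the other frozen ethanol libraries. F3'H stood at 7.60 CPM in ethanol replicate 7, from 15 counts, against at most 3.83 CPM in the other ethanol libraries.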

How the results depend on the processing

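Among member values under the alternatives that left out no single library, 3 lost a call, all of them CHIL after freezing, 1 gained one, and 9 uncalled values changed sign. These 9 were CHI on freezing after water (0.048 with the length trend removed, 0.052 with block and length), UGT78D1 on freezing after water (-0.037, -0.043, and -0.039 with water replicate 6 and ethanol replicate 7 left out) and CHIL on freezing after ethanol (-0.0067 with median-ratio size factors, -0.0049 with DESeq2, -0.00068 with the block, -0.058 with both libraries left out). In 1152 refits of a member value with 1 library left out, 15 calls were lost (CHI 5, CHIL 10), 3 were gained (UGT78D2 2, CHS 1), no called value changed sign, and 32 uncalled values did. Those were CHS (-0.12 to 0.03), UGT78D1 (-0.06 to 0.06) and UGT78D2 (-0.01 to 0.14) on freezing after water, MYB111 (-0.07 to 0.31) and CHIL (-0.11 to 0.09) on freezing after ethanol, and MYB111 (-0.31 to 0.10) and UGT78D2 (-0.03 to 0.15) in the difference of freezing effects. In the refit with the highest adjusted p these 7 values were, in that order, 0.0033, -0.0071, -0.0102, -0.00099, -0.0035, 5.7e-05 and -0.00011. The members called stayed at 8, 8, 0, 0 and 1 for water and ethanol against start, ethanol against water before freezing, and freezing after water and after ethanol. For ethanol against water after freezing they were 5 with only the groups compared, with the length trend removed and with block and length together, and 4 to 7 with 1 library left out, against 6. For the difference of freezing effects they were 1, CHS, with water replicate 6 and ethanol replicate 7 left out, and 0 to 1 with 1 library left out, the 1 being without water replicate 6. CHI after freezing reached an adjusted p of 0.0699 (edgeR) without frozen water replicate 6, and CHIL 0.144 without frozen ethanol replicate 2. With group means removed, same-numbered libraries of different groups had a mean correlation of 0.013 (highest 0.325). Libraries with different numbers had a mean of -0.0018 (highest 0.155). Of the 40 libraries 7 were closest to one of their own number. Whether some numbers mark a shared pot or day was not tested. The replicate block changed no member call (6 after freezing; CHS difference 0.58, adjusted p = 0.146), and moved the genes called for the difference of freezing effects from 22 to 36. That count was 41 with no filter and 42 without both libraries. Freezing after water went from 2315 genes called to 346 with the length trend removed and 353 with block and length, and freezing after ethanol from 1621 to 690 and 777. The cause was not tested. Depth limits MYB12, MYB111 and F3'H, which had at most 26, 38 and 77 counts in any library.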
